A study of Mus musculus with 8 samples.

Results

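The 36 genes described here act in DNA replication and S phase: they are the mouse genes of origin licensing, the replicative helicase, the polymerases and their clamp, Okazaki fragment joining, deoxynucleotide supply, the switch into S phase and chromatin assembly behind the fork. They were chosen by name among 23304 gene symbols, with earlier results of these data known, and all 36 passed the filter on low counts. RNA was sequenced from cells whose source is given as NIH3T3, an established line of mouse embryonic fibroblasts grown in serum, in 8 libraries of 2 per group. The extraction protocol speaks of MEFs (mouse embryonic fibroblasts) instead, and which of these was used is not settled here. The groups are labelled KO 2 h (ZMYND11 knockout by CRISPR, interferon-beta at 100 units/ml for 2 h), KO 0 h (the same knockout, untreated), WT 2 h (interferon-beta at 100 units/ml for 2 h) and WT 0 h (untreated). The number of knockout clones is not stated, and the labels do not tell whether a group's 2 libraries are separate cultures, so p-values reflect the spread of these libraries alone, which may be technical.

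A cell copies its genome once per division. In G1 the origin recognition complex, Cdc6 and Cdt1 load the ring-shaped Mcm2-7 helicase onto DNA, and at the start of S phase Cdc45 and the GINS complex turn it into an active helicase that DNA polymerases follow, held on by the sliding clamp Pcna. Many of these genes are switched on together at the passage from G1 to S by E2F transcription factors once cyclin-dependent kinases have released E2F from the retinoblastoma protein family. In a growing fibroblast culture their mRNA is therefore carried mostly by cells that have passed that point.

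The targeted gene was looked at first, because it checks the labels. Zmynd11 had 3.31 and 4.69 CPM (reads scaled to a common library size after TMM composition scaling) in the libraries labelled KO 2 h, against 137 and 131 CPM in those labelled KO 0 h, and 3.18 and 3.61 CPM in those labelled WT 2 h, against 123 and 120 CPM in those labelled WT 0 h. It thus went with the time label and not with the genotype label. Ifit1, an interferon-induced gene, went with the genotype label instead, at 396 and 380 CPM in KO 2 h and 196 and 229 CPM in KO 0 h, against 1.7 and 3.9 CPM in WT 2 h and 1.2 and 1.4 CPM in WT 0 h. The labels KO 0 h and WT 2 h therefore go against the level of the targeted gene, every group below is named only by its label, 2 h and 0 h included, and no difference is read as an effect of interferon or of the knockout. Whether these 2 labels were exchanged was not tested. If they were, the comparisons called 2 h against 0 h here would set knockout against wild-type cells, and those called KO against WT would set 2 h against 0 h. Gene reads summed to 13671013 to 21299120 per library, and KO 0 h replicate 2 had the most detected genes, 17498, against 14847 to 15945 in the others. Fibroblast markers such as Vim and Fn1 were present in every library, though the markers of this list changed unequally between the time labels, as given below. The 12 fibroblast markers summed to 19147 to 21161 CPM in the 4 libraries labelled 2 h, against 42531 to 47494 CPM in the 4 labelled 0 h. Endothelial markers summed to 12.2 to 14.7 CPM in the 4 libraries labelled 2 h, against 2.51 to 5.35 CPM in the 4 labelled 0 h. Of the 5 tested, 1 was called higher under each genotype label, and 1 was called lower under the WT label. Epithelial markers summed to 2.76 to 5.48 CPM over the 8 libraries, and macrophage and leukocyte markers to 47.5 to 99.7 CPM.

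All 36 replication genes were lower under the 2 h label than under the 0 h label, with either genotype label (edgeR's quasi-likelihood test, Benjamini-Hochberg adjusted p below 0.05 over 12807 genes). Their summed level was 1880 and 1990 CPM in KO 2 h, against 4796 and 4407 CPM in KO 0 h, and 1993 and 1959 CPM in WT 2 h, against 4490 and 4625 CPM in WT 0 h. Under the KO label 36 of 36 were called lower, with a median log2 fold change of -1.19 and a range of -2.26 for Mcm5 to -0.25 for E2f1. Of all genes tested, 31.2% were called lower in that comparison. Under the WT label 36 of 36 were called lower, with a median of -1.13 and a range of -2.37 for Mcm5 to -0.38 for E2f1, where 31.1% of all genes tested were called lower. The median over all genes tested was -0.01 under the KO label and 0.01 under the WT label. A fall of at least 2-fold was called for 24 members under the KO label, where 8.42% of all genes passed that mark, and for 22 members under the WT label, where 8.20% did. For each member the 2 libraries labelled 2 h lay below the 2 labelled 0 h, with no overlap, in both genotype labels. The share of all tested genes with such a separation was not counted, so it adds nothing to the calls. In bulk RNA, fewer cells in S phase and less of these mRNAs per cell cannot be told apart. The fibroblast markers given above moved with the same labels. Of 11 tested, 8 were called lower under the KO label and 9 under the WT label, and 1 was called higher under each. Their log2 fold changes ran from -3.26 and -3.50 for Col1a1 to 0.37 and 0.27 for Thy1 under the KO and WT labels. The part of the markers in the fall of the replication genes was not tested.

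**Figure D1:**
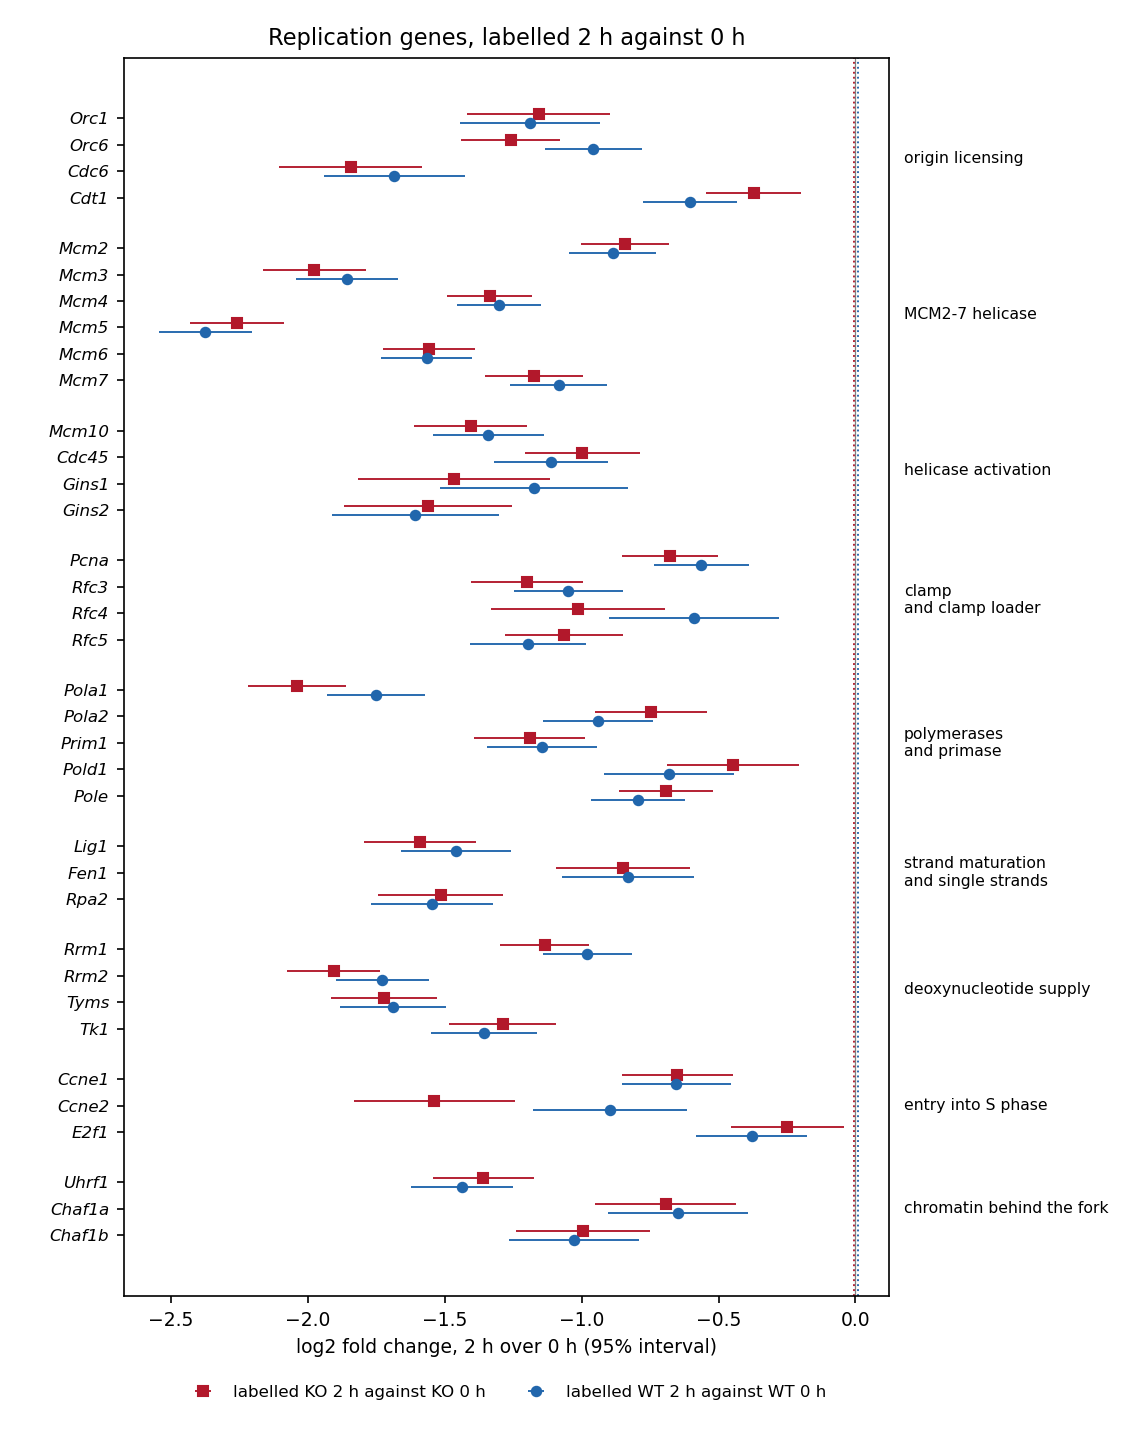
Log2 fold change of each replication gene in libraries labelled 2 h over those labelled 0 h, by step of replication, with 95% intervals from the edgeR fit (squares, KO label; circles, WT label; 2 libraries per group; dotted lines, median of all genes tested). Every interval lies below 0, from Mcm5 at -2.26 and -2.37 to E2f1 at -0.25 and -0.38.

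Promoter sequence was available for 31 of the 36 genes, as windows of 250 bases before to 50 bases after each RefSeq start on the GRCm38.p6 build. The windows were searched on both strands for a motif of E2F factors in 4 forms, TTTCCCGC, TTTGGCGC, TTTCGCGC and TTTGCCGC. They were also searched for a form shifted by 1 base, TTCCCGCC or TTGGCGCC, which can overlap the 4 forms. At least 1 of the 4 forms stood in a window of 12 of the 31 genes (38.7%), against 2.61% of all 27025 genes in the table and 4.60% of the tested genes that have a window. The other genes of the replication pathway, described below, had a similar share, 22 of 64 with a window (34.4%). The mitotic genes had 2 of 25 (8%). With the shifted form included, 16 of 31 genes (51.6%) had a match, against 5.11% of all genes and 9.06% of the tested genes with a window. Of the other pathway genes 25 of 64 (39.1%) had one, and of the mitotic genes 3 of 25 (12%). CCAAT stood in windows of 18 of the 31 genes (58.1%), against 41.1% of all genes and 43.4% of the tested genes. It stood in 35 of the 64 other pathway genes (54.7%) and in 21 of the 25 mitotic genes (84%). The cell cycle homology region, TTTGAA or TTCGAA, an element known from promoters of mitotic genes, stood in 5 of 31 (16.1%), near the 16.3% of the tested genes, against 21.7% of all genes and 19 of the 25 mitotic genes that have a window (76.0%). A match describes these letters and no more. The window of the member with the largest averaged fall among those with a match to the 4 forms is shown for 6 steps of replication, because these are the steps in which such a match was found: loading of the helicase (Cdc6), the helicase itself (Mcm5), the clamp loader (Rfc3), the primase complex (Pola1), ligation (Lig1) and chromatin (Uhrf1). Capitals mark matches to either form on either strand, and each window reads 5′ to 3′ along the gene.
Cdc6: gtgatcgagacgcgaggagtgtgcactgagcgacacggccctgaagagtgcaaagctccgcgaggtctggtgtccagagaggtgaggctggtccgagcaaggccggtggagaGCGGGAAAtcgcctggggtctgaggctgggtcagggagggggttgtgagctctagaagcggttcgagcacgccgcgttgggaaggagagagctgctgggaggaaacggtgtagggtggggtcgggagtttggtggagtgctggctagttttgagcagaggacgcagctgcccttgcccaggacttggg
Mcm5: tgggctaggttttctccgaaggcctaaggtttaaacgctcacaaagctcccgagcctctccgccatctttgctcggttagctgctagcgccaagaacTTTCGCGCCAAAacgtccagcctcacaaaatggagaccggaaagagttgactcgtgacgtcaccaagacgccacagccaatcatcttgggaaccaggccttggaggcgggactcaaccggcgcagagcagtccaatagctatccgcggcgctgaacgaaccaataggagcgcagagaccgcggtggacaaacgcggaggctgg
Rfc3: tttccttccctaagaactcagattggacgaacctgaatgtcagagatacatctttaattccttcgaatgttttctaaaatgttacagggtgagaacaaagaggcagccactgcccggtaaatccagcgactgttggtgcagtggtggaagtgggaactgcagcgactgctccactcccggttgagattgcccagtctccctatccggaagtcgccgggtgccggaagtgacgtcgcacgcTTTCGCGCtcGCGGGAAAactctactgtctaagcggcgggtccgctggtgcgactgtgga
Pola1: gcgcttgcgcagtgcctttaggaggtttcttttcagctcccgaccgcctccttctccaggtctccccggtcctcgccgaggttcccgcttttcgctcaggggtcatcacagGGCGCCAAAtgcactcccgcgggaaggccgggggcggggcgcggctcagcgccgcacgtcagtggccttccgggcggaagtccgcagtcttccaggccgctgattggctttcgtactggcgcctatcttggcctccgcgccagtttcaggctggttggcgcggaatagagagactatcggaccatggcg
Lig1: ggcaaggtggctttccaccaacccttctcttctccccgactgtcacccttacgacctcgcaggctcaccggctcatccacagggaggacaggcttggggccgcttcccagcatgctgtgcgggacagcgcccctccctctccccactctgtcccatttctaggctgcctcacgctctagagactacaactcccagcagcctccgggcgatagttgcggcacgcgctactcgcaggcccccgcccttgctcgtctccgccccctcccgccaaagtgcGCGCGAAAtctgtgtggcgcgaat
Uhrf1: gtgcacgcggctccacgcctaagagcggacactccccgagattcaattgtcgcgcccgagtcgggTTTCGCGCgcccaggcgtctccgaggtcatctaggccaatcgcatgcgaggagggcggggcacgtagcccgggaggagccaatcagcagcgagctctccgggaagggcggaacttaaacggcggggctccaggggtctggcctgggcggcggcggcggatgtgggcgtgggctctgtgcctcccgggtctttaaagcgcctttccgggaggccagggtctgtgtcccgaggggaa
The Mcm5 window (chr8:75109259-75109558, plus strand) holds overlapping matches on opposite strands, and the Cdc6 window (chr11:98907901-98908200, plus strand) holds 1. The Rfc3 window (chr5:151651159-151651458, minus strand) has a match on each strand close to the start. The Pola1 window (chrX:93632106-93632405, minus strand) has a match that overlaps the shifted form. Lig1 (chr7:13278576-13278875, plus strand) has 2 further windows in the table, 1 with the shifted form and 1 with no match. Uhrf1 (chr17:56304063-56304362, plus strand) has 1 further window, with the shifted form. The 12 genes with a match to the 4 forms had a median averaged log2 change of -1.46, between -2.32 for Mcm5 and -0.49 for Cdt1. The 19 genes without one in their windows had a median of -1.06, between -1.82 for Rrm2 and -0.31 for E2f1, so the ranges overlap over most of their length. Whether a window covers the start used in these cells was not tested, also for the only window of E2f1. A gene without a match here may therefore hold one elsewhere. The averaged change is the mean of the log2 fold changes under the KO and WT labels.

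Among the licensing factors, Cdc6 fell most and Cdt1 least. Cdc6, the ATPase that joins the origin recognition complex to bring in the helicase, had 12.5 and 14.4 CPM in KO 2 h, against 50.5 and 45.1 CPM in KO 0 h, and 15.9 and 12.4 CPM in WT 2 h, against 46.0 and 44.9 CPM in WT 0 h. The 4 libraries labelled 2 h were all low, at 27.9% of the 0 h level under the KO label and 31.1% under the WT label (log2 fold changes -1.84 ± 0.13 and -1.68 ± 0.12, SE; edgeR adjusted p 2.29e-11 and 7.35e-11). Cdt1, which hands the helicase over and is destroyed in S phase by ubiquitination, had 60.4 and 60.1 CPM in KO 2 h, against 75.7 and 80.2 CPM in KO 0 h, and 61.6 and 61 CPM in WT 2 h, against 90.9 and 95.3 CPM in WT 0 h. Its 2 h libraries were nearly level with each other, and its fall was -0.37 ± 0.08 under the KO label and -0.60 ± 0.08 under the WT label (edgeR adjusted p 0.000558 and 1.29e-06). Orc1, the cell-cycle-regulated subunit of the origin recognition complex, changed by -1.16 and -1.19 on the log2 scale. Orc6, its smallest subunit, changed by -1.26 under the KO label and by -0.96 under the WT label.

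The 6 subunits of the Mcm2-7 ring fell together but not equally. Mcm5 had the largest fall of all 36 genes, at 54.1 and 56.0 CPM in KO 2 h, against 275 and 251 CPM in KO 0 h, and at 50.9 and 54.8 CPM in WT 2 h, against 269 and 279 CPM in WT 0 h. The 4 libraries labelled 2 h stood at about the same level, 20.9% of the 0 h mean under the KO label and 19.3% under the WT label (-2.26 ± 0.08 and -2.37 ± 0.08; edgeR adjusted p 4.47e-16 and 1.65e-16). Mcm2 had the smallest fall of the ring, at 140 and 149 CPM in KO 2 h, against 273 and 245 CPM in KO 0 h, and at 146 and 150 CPM in WT 2 h, against 269 and 278 CPM in WT 0 h. Its groups did not overlap, and the fold changes were -0.84 ± 0.08 and -0.89 ± 0.08 (edgeR adjusted p 3.09e-09 and 1.27e-09). Under the KO and WT labels Mcm3 changed by -1.98 and -1.86, Mcm6 by -1.56 and -1.57, Mcm4 by -1.34 and -1.30, and Mcm7 by -1.17 and -1.08 on the log2 scale.

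Since the ring holds its 6 subunits in equal number, their relative mRNA levels were set side by side. Per kilobase of coding length, the subunits at 0 h lay between 95.4 (Mcm2) and 142 CPM (Mcm6) in KO 0 h and between 101 (Mcm2) and 132 CPM (Mcm6) in WT 0 h, a highest over lowest ratio of 1.48 and 1.31. At 2 h they lay between 25 (Mcm5) and 53.3 CPM (Mcm2) in KO 2 h and between 24.0 (Mcm5) and 54.5 CPM (Mcm2) in WT 2 h, a ratio of 2.13 and 2.27. Mcm2, the lowest subunit at 0 h, was thus the highest at 2 h, although with transcript length in place of coding length Mcm7 was the lowest in WT 0 h. The ratio in single libraries was 2.10 and 2.16 in KO 2 h, against 1.46 and 1.51 in KO 0 h, and 2.32 and 2.22 in WT 2 h, against 1.33 and 1.29 in WT 0 h.

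**Figure D2:**
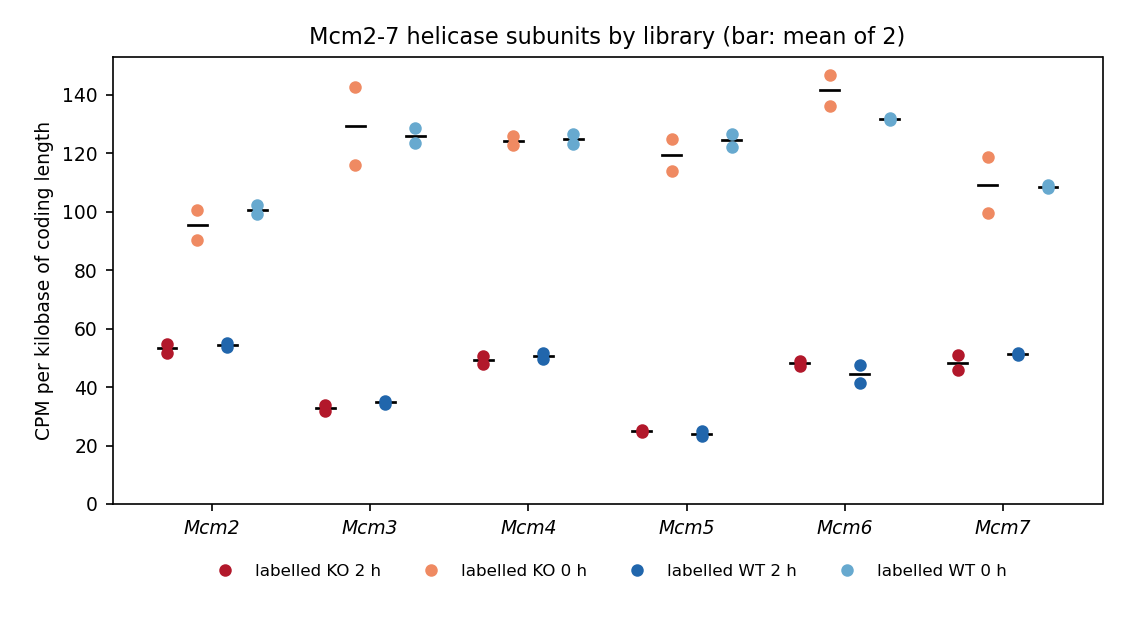
Level of each Mcm2-7 subunit in every library, in CPM per kilobase of coding length (points, libraries; bars, mean of the 2 libraries of a group). At 0 h the subunits lie between 95.4 and 142 CPM per kilobase as group means; at 2 h Mcm5 lies at 25 and 24.0 and Mcm2 at 53.3 and 54.5.

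The share of each subunit among the Mcm2-7 reads does not depend on how libraries are scaled. Mcm5 took 8.53% ± 0.41 of these reads in the 4 libraries labelled 2 h and 15.4% ± 0.42 in the 4 labelled 0 h (SD, n = 4 each). Mcm3 took 13.0% ± 0.34 at 2 h and 17.9% ± 0.83 at 0 h. Mcm2 went the other way, with 23.1% ± 0.52 at 2 h and 15.3% ± 0.53 at 0 h, and so did Mcm7, with 17.0% ± 0.66 at 2 h and 13.5% ± 0.40 at 0 h. Mcm4 took 20.4% ± 0.30 at 2 h and 18.6% ± 1.0 at 0 h. For these 5 subunits the libraries labelled 2 h and 0 h did not overlap, and the exact two-sided permutation test gave p = 0.0286 each, the smallest it can give with 4 against 4 (0.0343 after Benjamini-Hochberg adjustment over the 6 subunits). Mcm6 took 18% ± 1.36 at 2 h and 19.4% ± 0.81 at 0 h, which overlap (exact permutation p = 0.143, adjusted 0.143). The genotype labels were pooled on each side of this test, which treats all libraries of a side as separate units, though the labels do not establish this. The 6 shares of a library add up to its whole, so a lower share of some subunits raises others. The 6 tests are therefore tied and are not separate results.

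**Figure D3:**
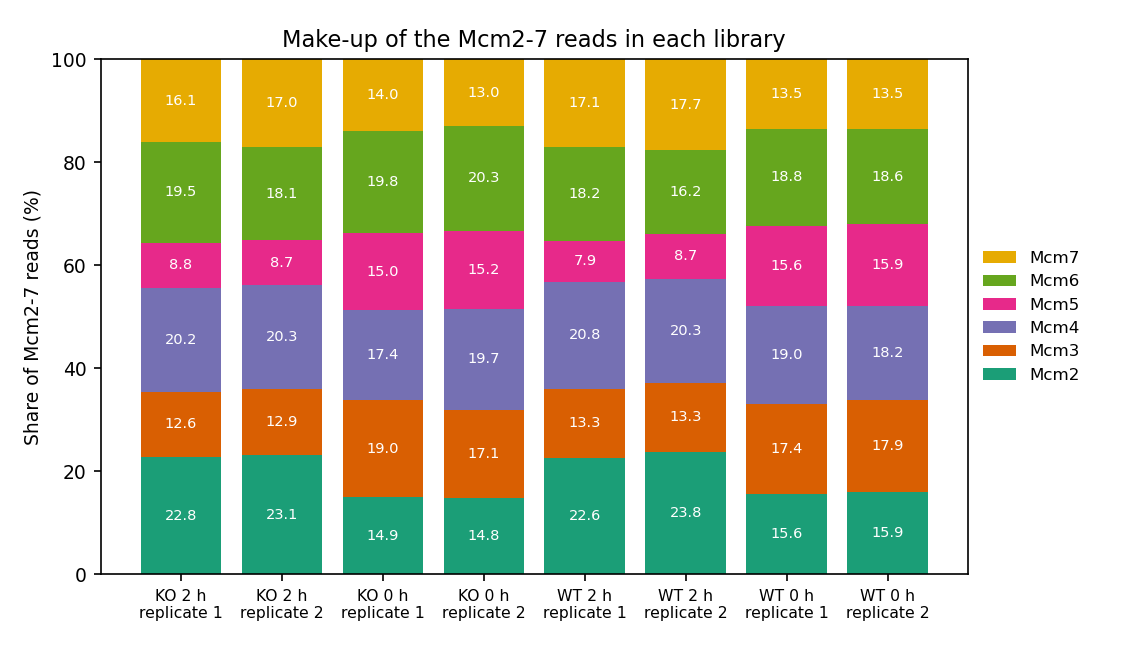
Share of the reads of the 6 Mcm2-7 genes, in percent, that fell on each subunit in each of the 8 libraries. The Mcm5 band is narrower in the 4 libraries labelled 2 h (7.92 to 8.79%) than in the 4 labelled 0 h (15 to 15.9%), and the Mcm2 band is wider (22.6 to 23.8% at 2 h, 14.8 to 15.9% at 0 h).

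All 4 factors that switch the loaded helicase on fell, with medians of -1.44 under the KO label and -1.26 under the WT label. Gins2, a subunit of the GINS complex, had 12.2 and 15.7 CPM in KO 2 h, against 43.7 and 37.5 CPM in KO 0 h, and 11 and 15.6 CPM in WT 2 h, against 38.2 and 42.7 CPM in WT 0 h. Its replicates spread more than those of the Mcm genes, with all 2 h libraries low, and it changed by -1.56 ± 0.15 and -1.61 ± 0.15 on the log2 scale (edgeR adjusted p 7.17e-09 and 3.8e-09). Cdc45, which completes the active helicase, had 27.1 and 26.5 CPM in KO 2 h, against 55.6 and 51.4 CPM in KO 0 h, and 27.3 and 24.1 CPM in WT 2 h, against 56.3 and 55.0 CPM in WT 0 h. Its groups did not overlap, and the fold changes were -1.0 ± 0.10 and -1.11 ± 0.10 (edgeR adjusted p 1.56e-08 and 2.22e-09). Mcm10, needed to set the helicase in motion, changed by -1.40 and -1.34, and Gins1, another GINS subunit, by -1.47 and -1.17. Gins1 was among the lowest members, at 7.17 and 11.1 CPM in KO 2 h.

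Pcna, the sliding clamp that tethers polymerases to DNA, had one of the smaller falls. It had 70.9 and 76.8 CPM in KO 2 h, against 112 and 124 CPM in KO 0 h, and 71.7 and 69.7 CPM in WT 2 h, against 107 and 102 CPM in WT 0 h. The 2 h libraries were at 62.5% and 67.7% of the 0 h level (-0.68 ± 0.08 and -0.56 ± 0.08; edgeR adjusted p 3.27e-07 and 4.34e-06). Rfc5, a small subunit of the clamp loader that opens Pcna, had 27.2 and 23.0 CPM in KO 2 h, against 52.7 and 53.1 CPM in KO 0 h, and 25.8 and 24.3 CPM in WT 2 h, against 56.1 and 58.8 CPM in WT 0 h. All 4 of its 2 h libraries were below 0 h, with changes of -1.06 ± 0.10 and -1.20 ± 0.10 (edgeR adjusted p 8.19e-09 and 9.92e-10). Of the other loader subunits, Rfc3 changed by -1.20 and -1.05 and Rfc4 by -1.01 and -0.59 on the log2 scale under the KO and WT labels. Processed copies of Pcna are annotated (Pcna-ps1 and Pcna-ps2), as is one of Tyms (Tyms-ps), so that reads shared with them are uncertain.

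The 5 genes of the polymerases and primase fell by different amounts. Pola1, the catalytic subunit of polymerase alpha that extends primers, had 33.7 and 37.5 CPM in KO 2 h, against 149 and 143 CPM in KO 0 h, and 36.4 and 36 CPM in WT 2 h, against 122 and 121 CPM in WT 0 h. Its 2 h libraries were all alike and its fall was the largest outside the Mcm genes, at -2.04 ± 0.09 and -1.75 ± 0.09 (edgeR adjusted p 6.51e-15 and 8.11e-14). Pola1 lies on the X chromosome, whose tested genes had a median log2 change of -0.79 under the KO label and -0.67 under the WT label, and Pola1 lay 1.25 and 1.08 below these medians. Other members lay on chromosomes with smaller shifts: the medians were -0.30 and -0.21 on chromosome 12 (Rrm2), -0.28 and -0.22 on chromosome 1 (Mcm3 and Mcm6) and -0.12 and -0.15 on chromosome 8 (Mcm5, Gins2, Orc6 and Cdt1). The chromosomes of all remaining members had medians above 0. These ran from 0.003 (chromosome 11) to 0.19 (chromosome 10) under the KO label. Under the WT label they ran from 0.02 (chromosome 11) to 0.18 (chromosome 6). The part of the chromosome in these falls was not tested. Pold1, the catalytic subunit of polymerase delta, which copies the lagging strand, had 28.4 and 35.7 CPM in KO 2 h, against 42.6 and 44.2 CPM in KO 0 h, and 27.6 and 32.6 CPM in WT 2 h, against 46.2 and 50.4 CPM in WT 0 h. The 2 h replicates lay apart from each other but below 0 h, and the changes were -0.45 ± 0.12 and -0.68 ± 0.11 (edgeR adjusted p 0.00201 and 2.08e-05). Without KO 2 h replicate 1, the Pold1 change under the KO label was -0.26 and was no longer called (edgeR adjusted p 0.104). Pole, the leading-strand polymerase, changed by -0.69 and -0.79, Pola2, the regulatory subunit of polymerase alpha, by -0.75 and -0.94, and Prim1, the primase that lays RNA primers, by -1.19 and -1.14.

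Rpa2, a subunit of the complex that coats single-stranded DNA, had 17.5 and 16.7 CPM in KO 2 h, against 52.2 and 45.6 CPM in KO 0 h, and 18 and 17.6 CPM in WT 2 h, against 51.2 and 52.8 CPM in WT 0 h. The 4 libraries labelled 2 h lay close together, far below those labelled 0 h, and the changes were -1.51 ± 0.11 and -1.55 ± 0.11 (edgeR adjusted p 5.54e-11 and 2.88e-11). Fen1, the nuclease that trims the flaps of Okazaki fragments, had 38.0 and 50.0 CPM in KO 2 h, against 87.6 and 69.3 CPM in KO 0 h, and 47.1 and 48.0 CPM in WT 2 h, against 86.9 and 82.2 CPM in WT 0 h. The KO-labelled replicates differed more than the WT-labelled ones, without overlap between the time labels, and the changes were -0.85 ± 0.12 and -0.83 ± 0.12 (edgeR adjusted p 2.1e-06 and 2.18e-06). Lig1, the ligase that seals the fragments, changed by -1.59 and -1.46 on the log2 scale.

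The 4 enzymes that make deoxynucleotides had a median log2 change of -1.50 under the KO label and -1.52 under the WT label. Rrm2, the S-phase subunit of ribonucleotide reductase, had 50.7 and 55.0 CPM in KO 2 h, against 195 and 200 CPM in KO 0 h, and 52.5 and 55.6 CPM in WT 2 h, against 175 and 184 CPM in WT 0 h. Its 2 h libraries stood at 26.7% and 30.2% of the 0 h level, with no overlap (-1.91 ± 0.08 and -1.73 ± 0.08; edgeR adjusted p 8.88e-15 and 4.32e-14). Rrm1, the large subunit that holds the catalytic site, had 236 and 243 CPM in KO 2 h, against 558 and 493 CPM in KO 0 h, and 267 and 244 CPM in WT 2 h, against 504 and 503 CPM in WT 0 h. It had the highest level per coding length of all members in each of the 4 groups, 101 CPM per kilobase in KO 2 h, 221 in KO 0 h, 108 in WT 2 h and 212 in WT 0 h, and it changed by -1.13 ± 0.08 and -0.98 ± 0.08 on the log2 scale (edgeR adjusted p 2.75e-11 and 2.95e-10). Tyms, thymidylate synthase, changed by -1.72 and -1.69, and Tk1, the thymidine kinase of proliferating cells, by -1.29 and -1.36. Rrm2b, the ribonucleotide reductase subunit induced by p53 that is not among the 36, went the other way, at 33.2 CPM in KO 2 h, against 22.9 CPM in KO 0 h, and 32.3 CPM in WT 2 h, against 17.5 CPM in WT 0 h (group means; log2 fold changes 0.54 and 0.88, edgeR adjusted p 0.000246 and 5.04e-07).

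The 3 genes that govern entry into S phase had a median log2 change of -0.65 under each genotype label. Ccne2, cyclin E2, had 8.96 and 9.46 CPM in KO 2 h, against 24.3 and 29.1 CPM in KO 0 h, and 13.0 and 11.4 CPM in WT 2 h, against 21.5 and 24.0 CPM in WT 0 h. Both 2 h groups were low and the KO-labelled one lay below the WT-labelled one, with changes of -1.54 ± 0.14 and -0.90 ± 0.14 (edgeR adjusted p 2.88e-09 and 5.31e-06). E2f1, an activator of the E2F family and itself an E2F target, had 50.2 and 58.6 CPM in KO 2 h, against 67.7 and 61 CPM in KO 0 h, and 50.0 and 57.0 CPM in WT 2 h, against 67.1 and 72.0 CPM in WT 0 h. The groups came close to each other, and its changes of -0.25 ± 0.10 and -0.38 ± 0.10 were the smallest of the 36 (edgeR adjusted p 0.0349 and 0.002). The E2f1 call under the KO label was lost with library size alone as the scaling (-0.10, adjusted p 0.4), with DESeq2 (-0.23, adjusted p 0.0775) and when any of 6 of the 8 libraries was left out, at -0.11 without KO 2 h replicate 1 and -0.14 without KO 0 h replicate 1. Without WT 2 h replicate 1 the call under the WT label was lost too (-0.25, edgeR adjusted p 0.0946). Ccne1, cyclin E1, changed by -0.65 in both.

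Of the factors that rebuild chromatin behind the fork, Uhrf1, which brings the maintenance DNA methyltransferase to newly copied DNA, fell most. It had 80.7 and 86.4 CPM in KO 2 h, against 232 and 195 CPM in KO 0 h, and 82.0 and 78.8 CPM in WT 2 h, against 207 and 229 CPM in WT 0 h. All 2 h libraries were low, with changes of -1.36 ± 0.09 and -1.44 ± 0.09 (edgeR adjusted p 1.24e-11 and 4.62e-12). Chaf1a, the large subunit of the histone chaperone CAF-1, had 73.3 and 92.9 CPM in KO 2 h, against 153 and 115 CPM in KO 0 h, and 83.7 and 85.9 CPM in WT 2 h, against 125 and 141 CPM in WT 0 h. Replicates under the KO label were spread widely but did not overlap, and the changes were -0.69 ± 0.12 and -0.65 ± 0.12 (edgeR adjusted p 9.52e-05 and 0.000174). Without KO 0 h replicate 1 the change under the KO label was -0.44, still called (edgeR adjusted p 0.00127). Chaf1b, its partner, changed by -0.99 and -1.03. Chaf1a shares 4648 exon bases with Ubxn6 on the opposite strand in the GENCODE annotation of GRCm38, Gins2 shares 2758 with Gse1, Fen1 1909 with an antisense gene and Ccne2 609 with Ints8. Whether the counting used strand is not known, so reads of these pairs cannot be told apart.

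Between the genotype labels no member was called different under either time label. For KO 2 h against WT 2 h, 0 of 36 were called by edgeR, where 1.59% of all genes were called higher and 0.00781% lower, and DESeq2 called 0 as well. The median log2 fold change was -0.04, and the 95% intervals of the 36 genes ran from -0.72 for Ccne2 to 0.39 for Gins2. At an unadjusted p under 0.05 there was 1, Ccne2, with a fold change of -0.41 ± 0.15 (edgeR adjusted p 0.414). For KO 0 h against WT 0 h, edgeR and DESeq2 again called 0 of 36, where 2.65% of all genes were called higher and 1.27% lower. The median was 0.01, and the intervals ran from -0.44 for Pola2 to 0.60 for Rfc4. At an unadjusted p under 0.05 there were 5: Pola1, Rfc4 and Pcna at 0.26, 0.30 and 0.17, and Cdt1 and Pola2 at -0.26 and -0.25. For neither comparison was the share of all genes under that unadjusted mark counted, so these genes are not read as different. Pola1 came closest to a call (edgeR adjusted p 0.0636), with 149 and 143 CPM in KO 0 h, against 122 and 121 CPM in WT 0 h, and it was called when only the 4 libraries of this comparison were fitted (0.27, adjusted p 0.0497) or when either KO 2 h replicate was left out (adjusted p 0.0485 and 0.0492). A difference of 2-fold lay outside the interval of all 36 genes under both time labels.

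**Figure D4:**
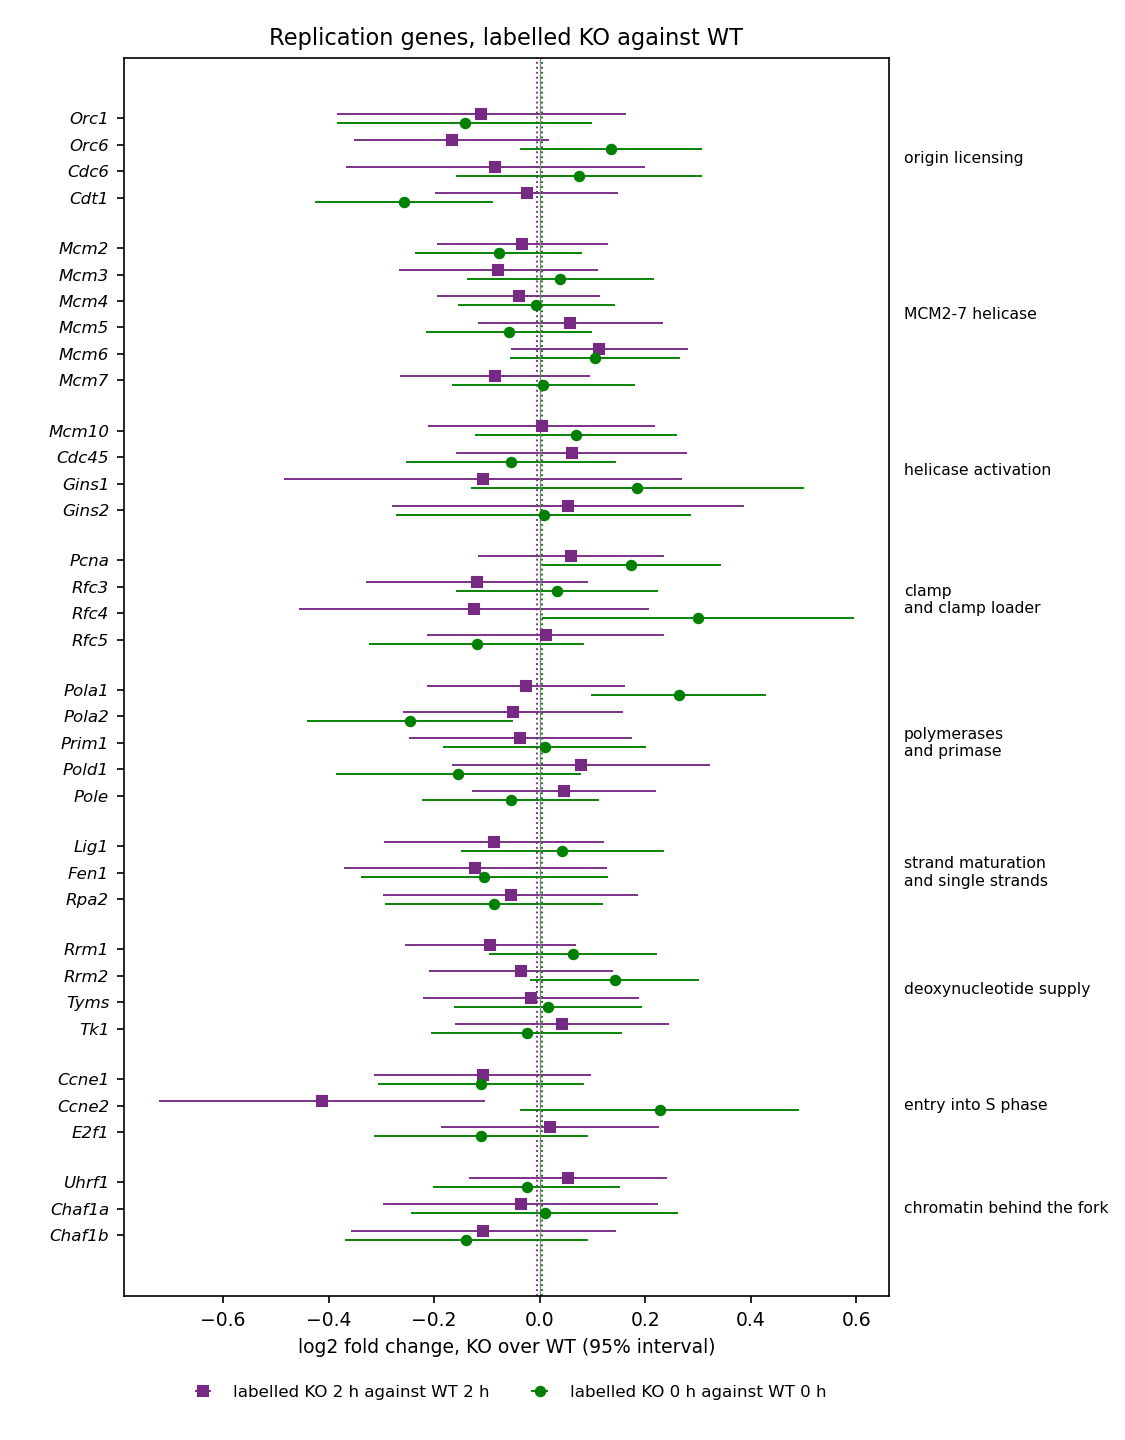
Log2 fold change of each replication gene in libraries labelled KO over those labelled WT, at 2 h (squares) and 0 h (circles), with 95% intervals from the edgeR fit (2 libraries per group; dotted lines, median of all genes tested). No member was called; the intervals run from -0.72 (Ccne2, 2 h) to 0.60 (Rfc4, 0 h).

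The difference between the 2 h against 0 h changes under the KO label and the WT label was tested as an interaction, and 0 of 36 members were called by edgeR or by DESeq2. Of all genes, 0.0547% were called with a positive and 0.0781% with a negative interaction. At an unadjusted p under 0.05, where the share of all genes was not counted, there were 3 members, Orc6, Pola1 and Ccne2. The largest was Ccne2, at -0.64, with an interval reaching to -1.05 (edgeR adjusted p 0.219, the lowest of the 36). The fall was larger under the KO label for 19 members and under the WT label for 17, and the median gap between the pair of fold changes was 0.11 on the log2 scale.

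The other genes of the replication pathway fell less evenly. Of 78 listed, 77 were in the count tables and 76 were tested. Under the KO label 66 of these were called lower and 2 higher, with a median log2 change of -0.82, and under the WT label 66 lower and 1 higher, with a median of -0.65. Falls of at least 2-fold were called for 22 and 21 of them, where 8.42% and 8.20% of all genes tested passed that mark. Of all genes tested, 31.2% were called lower under the KO label and 31.1% under the WT label, and 30.0% and 30.1% higher. Dscc1, a subunit of the alternative clamp loader that serves sister chromatid cohesion, fell further than any of the 36 (-2.39 and -2.59, edgeR adjusted p 9.46e-11 and 3.4e-11), at a low mean level of 3.55 CPM in KO 2 h, against 18.8 CPM in KO 0 h, and 2.96 CPM in WT 2 h, against 17.8 CPM in WT 0 h. Ccna2, the S-phase cyclin A2, changed by -1.86 and -2.00, Asf1b, a histone chaperone, by -1.85 and -1.81, and Dut, which clears dUTP, by -1.48 and -1.60. Prim2, the large primase subunit, changed by -1.31 and -1.22, Recql4, a helicase of replication initiation, by -1.16 and -1.53, Mcmbp, an Mcm-binding protein, by -0.95 and -1.06, and Top2a, topoisomerase II alpha, by -1.09 and -0.83. At the other end of each role stood genes with small changes: Rfc1, the large subunit of the clamp loader, changed by -0.40 and -0.19, Topbp1, a helicase activator, by -0.36 and -0.27, and E2f4, a repressive E2F factor, by -0.23 and -0.37. The changes of Mcm9 (0.01 and -0.05), Rbbp4 (0.00 and 0.11) and Rnaseh2a (-0.04 and -0.14) were not called. Pold4, the smallest polymerase delta subunit, was called higher under the KO label (0.39, edgeR adjusted p 0.0185) and not under the WT label (0.18, adjusted p 0.242). The interaction called none of the 76, where 0.0547% of all genes were called positive and 0.0781% negative. Between the genotype labels, 1 of the 76 was called higher for KO 2 h against WT 2 h, where 1.59% of all genes were called higher. It was Samhd1, a deoxynucleotide-degrading enzyme, at 116 CPM in KO 2 h, against 78.6 CPM in WT 2 h (0.56 ± 0.08, edgeR adjusted p 6.67e-05). For KO 0 h against WT 0 h 4 of the 76 were called higher, where 2.65% of all genes were. They were Samhd1 (0.39), Casp8ap2 (0.39), the chromatin remodeller Hells (0.38) and topoisomerase I, Top1 (0.31), with edgeR adjusted p of 0.0051 to 0.0308. None of the 76 was called lower in either comparison, where 0.00781% of all genes were called lower at 2 h and 1.27% at 0 h.

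Genes of later and earlier cell cycle steps were looked at beside them. All 30 genes of the list for mitosis and G2/M were called lower under both labels, where 31.2% (KO label) and 31.1% (WT label) of all genes were. Their medians were -1.22 under the KO label and -1.08 under the WT label, close to those of the 36 replication genes. The 12 tested G1 cyclins, kinases and inhibitors were mixed, with 7 called higher and 3 lower under the KO label, where 30.0% of all genes were called higher, and 6 higher and 4 lower under the WT label, where 30.1% were. The shares called lower lie near those of all genes given above. Ccnd2, cyclin D2, rose by 1.15 and 1.13 on the log2 scale, the kinase inhibitors Cdkn1a and Cdkn1b by 0.74 and 0.62 under the KO label and by 0.62 and 0.80 under the WT label, and the retinoblastoma gene Rb1 by 0.36 and 0.71. Cdkn2c, another kinase inhibitor, had the largest fall of the list, at -0.90 and -0.85. Rbl1, a relative of Rb1 and an E2F target, changed by -0.68 and -0.66.

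**Figure D5:**
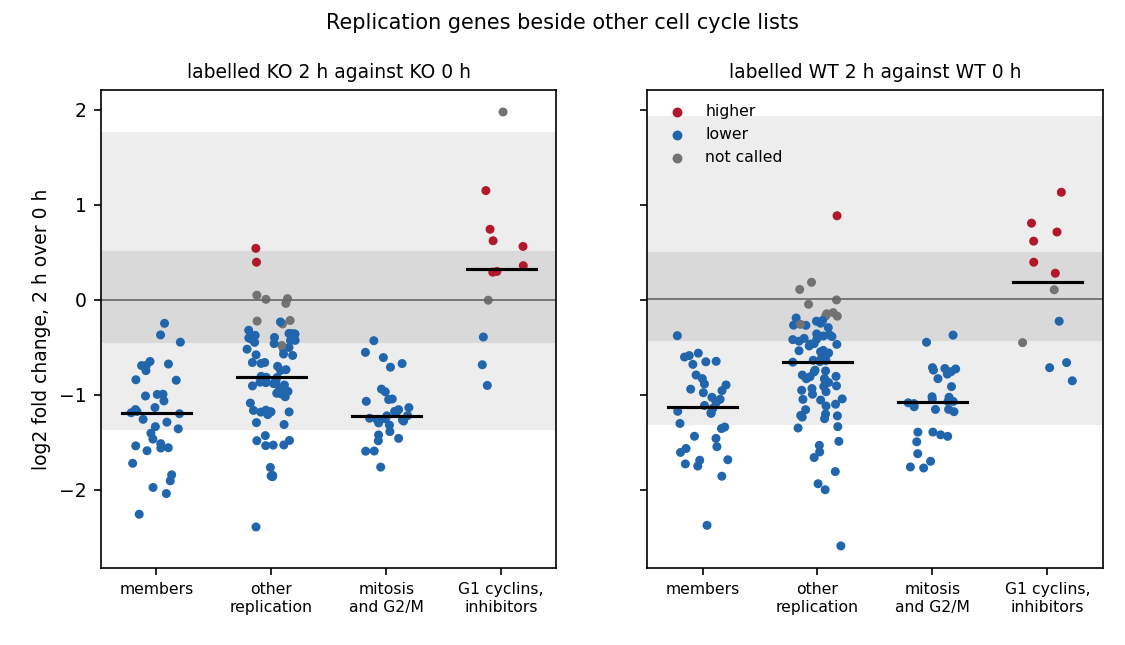
Log2 fold change, 2 h over 0 h, of the 36 members, the other replication genes, mitotic genes and G1 genes under the KO label (left) and the WT label (right); each point is a gene coloured by its edgeR call, and black bars are list medians. Grey bands hold the middle 50% and 90% of all genes tested: the members' medians are -1.19 and -1.13, and the G1 medians are 0.33 and 0.19.

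The order of the members by level shifted with the time labels. Per kilobase of coding length, Rrm1, Rrm2 and Pcna were the highest at 0 h in both genotype labels, while Rrm1 and Pcna led at 2 h and Rrm2 stood at 45.2 CPM per kilobase in KO 2 h, against 169 in KO 0 h, and at 46.2 in WT 2 h, against 153 in WT 0 h. Mcm5 was 21st of 36 in KO 2 h and 8th in KO 0 h, and 21st in WT 2 h and 7th in WT 0 h. E2f1 moved up, to 9th in KO 2 h, against 21st in KO 0 h, and to 10th in WT 2 h, against 22nd in WT 0 h. Orc1 was last in KO 2 h and KO 0 h, at 5.5 and 12.4 CPM per kilobase, and last in WT 2 h at 6.0, and Rfc4 was last in WT 0 h at 13.0. Ranks next to each other often differed by less than the spread between replicates, and several depended on the length used. With transcript length in place of coding length Gins2 was 35th in KO 2 h, against 34th in KO 0 h, where coding length put it 20th and 14th. Rrm1 stayed 1st in every group by transcript length, but Rrm2 was 4th in KO 0 h and 5th in WT 0 h. Pcna was 8th in KO 0 h and 10th in WT 0 h by that measure. Ccne2 was then last in KO 2 h, KO 0 h and WT 0 h, and Gins2 was last in WT 2 h.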

How the data were processed

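The authors deposited raw counts of reads per gene symbol, 1 file per library. The submitters' processing notes name the mm9 build, HTSeq, STAR 2.5.2b and bcl2fastq 2.15, without roles; whether strand was used is not stated there, nor is the annotation. The 4 summary lines of each file, 36.9 to 43.2% of its reads, were left out. Counts were fitted with edgeR 4.0.16 (R 4.3.3): filterByExpr (minimum count 10, total 15; 12807 genes), TMM scaling and a robust quasi-likelihood model with 1 coefficient per group over the 8 libraries, with 4 residual degrees of freedom. The 5 comparisons were 2 h against 0 h under each genotype label, KO against WT at each time, and the interaction. P-values were Benjamini-Hochberg adjusted over all tested genes and called below 0.05. Fold changes carry SE or 95% intervals; intervals and depth cover no other error. The fit was tested on simulated counts. Shares of Mcm2-7 reads were compared by exact permutation (scipy 1.17.1). Lengths and overlaps come from the GENCODE annotation of GRCm38 and promoters from RefSeq on GRCm38.p6; no coordinates were converted. Members and lists were chosen with earlier results of these data known. All 36 members could be named; per-library values were given for the largest and smallest averaged change in each step, and other pathway genes were named by the extremes of each role plus those called higher in both time comparisons; Pold4, Samhd1, Casp8ap2, Hells and Top1 were added after their values were seen, as were the G1 genes named. Alternatives covered DESeq2 1.42.0, other scalings and filters, a fold threshold, the replicate block and left-out libraries.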

Additional observations from a re-analysis of the deposited data

How the results depend on the processing

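No fold change of a member that was called changed sign under any of the alternatives run. The 36 members called under the WT label stayed at 36 except with a test against a fold of 1.5 (29) and without WT 2 h replicate 1 (35), and under the KO label they were 28 with that fold test, 35 with library size alone, with only the 4 libraries compared and with DESeq2, and 34 to 36 with 1 library left out. For KO 0 h against WT 0 h, 1 member (Pola1) was called with only the 4 libraries compared, and 0 to 1 with 1 library left out; the cause was not tested. KO 2 h against WT 2 h and the interaction gave 0 members in every alternative run. Replicate numbers did not pair the libraries: their deviations correlated at -0.05 to -0.01 between groups, and a fit with the replicate block called 36, 36, 0, 0 and 0 members, while over all genes its calls for KO 0 h against WT 0 h were 322, against 502 without it. Library size alone moved the median of all genes to 0.14 under the KO label and 0.15 under the WT label and split all calls into 4834 higher and 3036 lower, against 3838 and 3991 with TMM, and into 4823 and 3055, against 3853 and 3984. Over all genes, the fold test called 3012 under the KO label and 2939 under the WT label (main 7829 and 7837), 110 for KO 0 h against WT 0 h and 111 for KO 2 h against WT 2 h (main 502 and 205), and 5 for the interaction (main 17). Without a filter KO 0 h against WT 0 h gave 809 and the interaction 113, and DESeq2 gave 33 for the interaction. With transcript length the Mcm2-7 highest over lowest ratio was 2.63 in KO 2 h, 1.56 in KO 0 h, 2.80 in WT 2 h and 1.41 in WT 0 h. With 2 libraries a group, changes near that of E2f1 sit at the edge of what this depth and spread can call.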
